A study of Sus scrofa with 6 samples.

Results

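Polyamines are small cations that cells need for growth and for translation, and their level is set by synthesis, breakdown and uptake. Ornithine decarboxylase makes putrescine, synthases then build spermidine and spermine from it, and acetyltransferases and oxidases turn these back. In adipose tissue of mice, overexpression of the acetyltransferase SAT1 is known to deplete fat, which has been ascribed to the acetyl-CoA that the cycle of acetylation and resynthesis consumes. The 10 genes considered here encode the enzymes of both directions (SAT1, SAT2, SMOX and PAOX for breakdown, ODC1, AMD1, SRM and SMS for synthesis) and the antizyme system that controls ornithine decarboxylase (OAZ1 and AZIN1). They were taken by symbol, and the set was chosen by the measured difference of SAT2 between these same resveratrol and control libraries. The contrast between the diets is therefore described for these genes and not tested. Of the 10 genes, 8 had a row in the count tables of 22844 rows, and all 8 were among the 14908 rows that reached a mean of 0.5 TPM (a transcript level scaled for transcript length and library size). AMD1 and SRM could not be matched to a row by symbol and were not analysed here.

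RNA came from the subcutaneous fat of crossbred pigs (Duroc × Landrace × Yorkshire). Resveratrol, a polyphenol made by plants, was fed at 400 mg/kg of diet to the group behind the 3 resveratrol libraries, and the 3 control libraries came from pigs fed no added resveratrol. Age, sex and the length of feeding are not in the labels. They also do not say whether each library stands for its own animal, so the p-values reflect variation among these libraries alone, and that variation may be technical.

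Depth was 34436239 to 37943877 reads in the resveratrol libraries and 16251536 to 34048559 reads in the control libraries, with control 2 the shallowest. The fat identity of the tissue was visible in every library, with adiponectin (ADIPOQ) at 4437 to 4683 TPM in resveratrol and 3614 to 4042 TPM in control. The 8 skeletal muscle markers, of which 5 had a row, summed to at most 1.77 TPM in resveratrol and 2.45 TPM in control. Across all tested rows, edgeR's quasi-likelihood test called 0 (0%) at a Benjamini-Hochberg adjusted p under 0.05 between the diets, with 973 rows (6.53%) at an unadjusted p under 0.05 and 40 rows called by DESeq2. Of the 8 polyamine genes, 0 passed the adjusted threshold and 1, SAT2, had an unadjusted p under 0.05, against 2.21% of all rows higher and 4.32% lower in resveratrol at that p. The TPM values of the groups did not overlap in 1 of the 8, again SAT2, against 12.3% of all rows (4.11% higher and 8.15% lower in resveratrol). In CPM, read counts scaled for library size and composition, it was also 1 of the 8, against 12.6% of all rows (5.67% higher and 6.97% lower). Nothing is read from these counts, because SAT2 chose the set.

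The 8 genes spanned a wide range of levels in fat. The antizyme OAZ1 was the most abundant, with a mean of 773 TPM over the 6 libraries, followed by SAT1 at 564 TPM. SMS at 42.0 TPM and SAT2 at 38.1 TPM came next, and AZIN1, PAOX, ODC1 and SMOX had means of 17.7, 13.8, 11.6 and 3.45 TPM. OAZ1 exceeded SAT1 in 5 of the 6 libraries, the exception being control 2. SMS and SAT2 could not be ordered, since SMS was the higher of the pair in 1 of 3 resveratrol libraries and in 2 of 3 control libraries. Every other neighbouring pair kept its order in all 6 libraries.

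**Figure D1:**
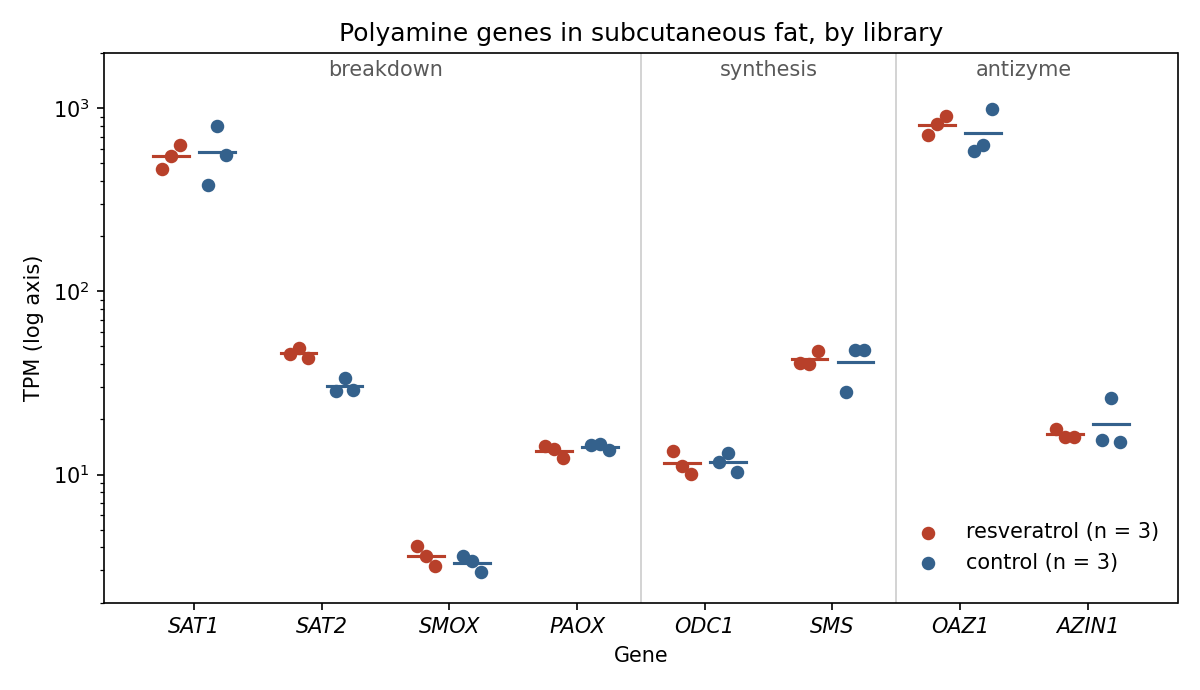
TPM (log axis) of the 8 measured polyamine genes in each library, with resveratrol left of control for each gene and a bar at the mean of 3 libraries. SAT2 separates the diets, at 43.0 to 48.9 TPM in resveratrol and 28.7 to 33.8 TPM in control, while the points of the other 7 genes overlap.

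Among the breakdown genes, SAT2 encodes a relative of the spermidine/spermine acetyltransferase SAT1. The human SAT2 enzyme is known to act better on the lysine analogue thialysine than on polyamines, so the name alone does not establish a role in polyamine breakdown. SAT2 (ENSSSCG00000017952.3) measured 45.4, 48.9 and 43.0 TPM in resveratrol 1, 2 and 3, against 28.7, 33.8 and 28.8 TPM in control 1, 2 and 3. The lowest resveratrol library thus lay above the highest control library. On counts the log2 fold change, resveratrol over control, was 0.66 (SE 0.15), a ratio of 1.58, and the ratio of mean TPM was 1.503. Among the 5825 rows with a symbol and a positive fold change, SAT2 ranked at place 2 by unadjusted p, after TRPM5. Its adjusted p was 0.694 in edgeR and 0.0597 in DESeq2, both above 0.05. The rank and these adjusted p-values come from the contrast by which SAT2 was chosen, and are given as a description.

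The replicates of SAT2 lay close together. In CPM scaled by TMM (the trimmed mean of M values, edgeR's correction for library composition), SAT2 measured 22.2, 23.7 and 22.9 in resveratrol 1, 2 and 3, against 14.9, 13.9 and 14.7 in control 1, 2 and 3. The SD of log2 CPM within groups was 0.051, at percentile 0.423 of the tested rows, whose median was 0.27. This spread is part of the contrast by which SAT2 was chosen, and is given as a description. The values rested on 783 to 893 reads in resveratrol and 247 to 451 reads in control. The exact 95% Poisson intervals, which cover counting error only, reached down to 20.8 CPM in the lowest resveratrol library and up to 16.3 CPM in the highest control library.

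SAT1 (ENSSSCG00000012173.4), the rate-limiting acetyltransferase of polyamine breakdown, measured 468, 551 and 632 TPM in resveratrol 1, 2 and 3, against 379, 795 and 557 TPM in control 1, 2 and 3. All 3 resveratrol libraries lay inside the control range. Its log2 fold change on counts was 0.12 (SE 0.23), whereas its mean TPM was lower in resveratrol, with a ratio of 0.954. The direction of SAT1 thus depended on the scale, and it was below 0 in 6 of 18 alternative settings, among them the counts without control 1 (-0.054) and without resveratrol 3 (-0.029).

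SMOX, the oxidase that turns spermine directly into spermidine, was the least abundant of the measured genes. It had 4.07, 3.60 and 3.15 TPM in resveratrol 1, 2 and 3, against 3.58, 3.37 and 2.93 TPM in control 1, 2 and 3, with a log2 fold change of 0.21 (SE 0.19). In the RefSeq annotation of Sscrofa11.1 the span of SMOX overlaps that of another protein-coding gene, LOC110257389. Whether their exons overlap was not examined, and the counting of strand is not given in the sources used here. Reads of LOC110257389 may thus be counted in SMOX. PAOX, the peroxisomal oxidase of acetylated polyamines, had 14.3, 13.8 and 12.3 TPM in resveratrol 1, 2 and 3, against 14.5, 14.6 and 13.5 TPM in control 1, 2 and 3. Its log2 fold change was 0.0033 (SE 0.15), and 7 of the 18 settings put it below 0. Both oxidases overlapped between the diets, and PAOX had the narrowest range of the 8 genes, with its highest library 1.19 times its lowest.

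For synthesis, ODC1, the decarboxylase that makes putrescine from ornithine, measured 13.4, 11.1 and 10.04 TPM in resveratrol 1, 2 and 3, against 11.7, 13.0 and 10.3 TPM in control 1, 2 and 3. SMS, the synthase that makes spermine from spermidine, measured 40.8, 40.1 and 47.4 TPM in resveratrol 1, 2 and 3, against 28.2, 48.1 and 47.7 TPM in control 1, 2 and 3. The log2 fold changes were 0.067 (SE 0.16) for ODC1 and 0.15 (SE 0.21) for SMS. Neither gene separated the diets. SMS was lowest in control 1, and without that library its log2 fold change was -0.029, while that of ODC1 was -0.026 without resveratrol 1.

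The antizyme OAZ1 binds ornithine decarboxylase and delivers it to the proteasome, and AZIN1, an inactive relative of the decarboxylase, binds the antizyme in its place. OAZ1 measured 714, 815 and 903 TPM in resveratrol 1, 2 and 3, against 584, 630.3 and 991 TPM in control 1, 2 and 3. AZIN1 measured 17.7, 16.1 and 16.1 TPM in resveratrol 1, 2 and 3, against 15.4, 26.1 and 15.0 TPM in control 1, 2 and 3. The log2 fold changes were 0.20 (SE 0.26) and -0.059 (SE 0.18), and both genes overlapped between the diets. OAZ1 was highest in control 3, and its log2 fold change was 0.54 (SE 0.22) without that library and 0.023 without control 2. AZIN1 was highest in control 2, and without that library its log2 fold change was 0.13. Antizyme is made by a ribosomal frameshift that polyamines promote, so its protein level is not given by its RNA.

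Counted together, 7 of the 8 genes had a log2 fold change above 0 on counts, with a median of 0.14 (0.12 without SAT2), against 48.8% and a median of -0.0075 over all tested rows. On log2(TPM + 0.5) in limma, 4 of the 8 were above 0, where the median over all tested rows was also lower, at -0.0792. Each of the 7 genes other than SAT2 had a log2 fold change between -0.059 and 0.21, with standard errors of 0.15 to 0.26. With 1 library left out, the values of OAZ1 had the widest range of the 8 genes, up to the 0.54 without control 3.

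**Figure D2:**
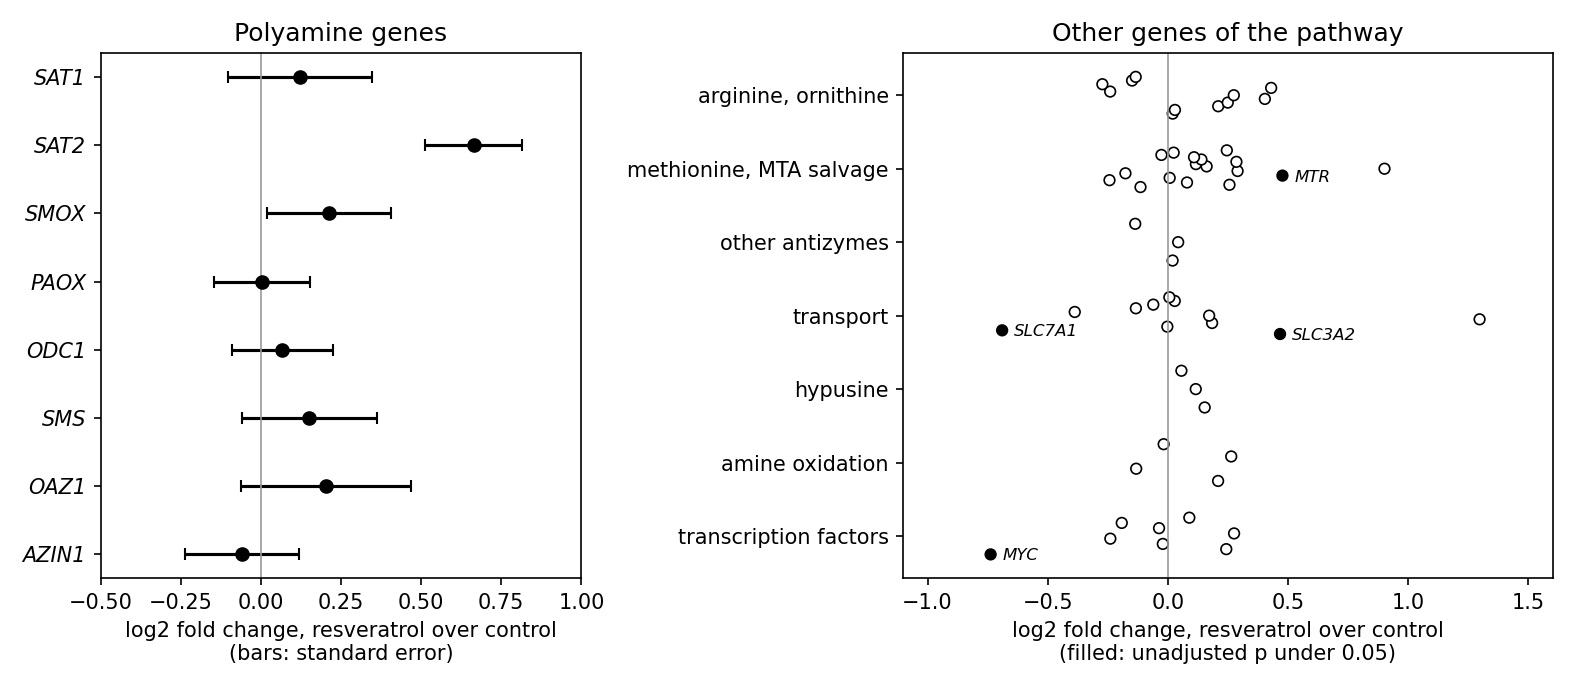
Log2 fold changes on counts, resveratrol over control: left, the 8 polyamine genes with their standard errors; right, the tested genes of 7 neighbouring pathway lists, filled where the unadjusted p was under 0.05. SAT2 lies at 0.66 and the other 7 polyamine genes lie between -0.059 and 0.21.

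The TPM ratio of the acetyltransferases was on average lower in resveratrol. Its denominator, SAT2, was chosen for its rise between these same libraries, so the ratio is given as a description. SAT1 transcripts outnumbered SAT2 transcripts by 10.3, 11.3 and 14.7 to 1 in TPM in resveratrol 1, 2 and 3, against 13.2, 23.5 and 19.3 to 1 in control 1, 2 and 3. The ratio averaged 12.1 ± 2.30 in resveratrol and 18.7 ± 5.18 in control (SD, n = 3 each), and the groups overlapped through resveratrol 3 and control 1. In CPM the ratio of control 2 was 16.2, below that of control 3 at 17.4. The ratio of the oxidases SMOX and PAOX was 0.285, 0.261 and 0.257 in resveratrol 1, 2 and 3, against 0.248, 0.230 and 0.217 in control 1, 2 and 3. These groups did not overlap, although neither oxidase separated the diets by itself. SMOX had only 137 reads in control 2, and its reads may include some of LOC110257389, whose span overlaps it. How often ratios of other gene pairs separate the diets was not measured.

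The ratios that set breakdown or antizyme against ornithine decarboxylase did not separate the diets. SAT1 over ODC1 averaged 49.1 ± 14.002 in resveratrol and 49.1 ± 15.0 in control. OAZ1 over ODC1 averaged 72.2 ± 18.4 in resveratrol and 64.7 ± 27.1 in control, while AZIN1 over OAZ1 averaged 0.0208 ± 0.00361 in resveratrol and 0.0276 ± 0.0132 in control (SD, n = 3 each). The log2 difference of OAZ1 over ODC1 was 0.20, and 0.026 to 0.52 with 1 library left out. That of AZIN1 over OAZ1 was -0.31, and -0.68 without control 3 to 0.045 without control 2. Antizyme transcripts exceeded those of the decarboxylase by at least 48.4 to 1 in every library.

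**Figure D3:**
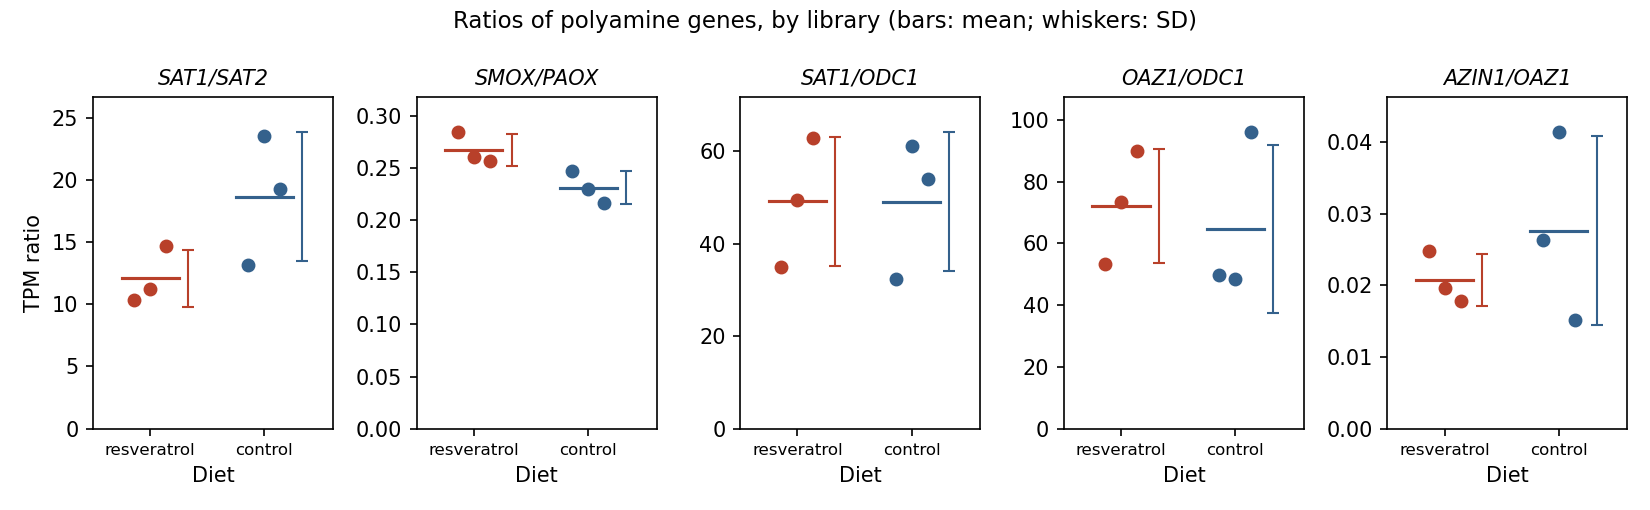
TPM ratios of polyamine genes in each library, resveratrol left of control, with bars at the mean and whiskers of 1 SD (n = 3 each). SMOX over PAOX is the ratio of these 5 without overlap, at 0.257 to 0.285 in resveratrol and 0.217 to 0.248 in control. The reads of SMOX may include some of a gene whose span overlaps it.

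Of the 8 genes, SAT1 varied most between libraries in the number of reads behind each TPM unit, a number that follows the transcript length used for the gene in that library. The SAT1 row combines 4 transcripts. Relative to the median of its library, the reads per TPM of SAT1 were 0.224, 0.228 and 0.222 in resveratrol 1, 2 and 3, against 0.222, 0.184 and 0.246 in control 1, 2 and 3. Control 2 was low and control 3 high, and the resveratrol libraries lay together. The highest library was 1.33 times the lowest, a spread at percentile 99 of the 12007 rows with a mean of at least 100 reads. For the other 7 genes this spread was at most 1.04 times. The high SAT1 TPM of control 2 stood beside its low number of reads per TPM, and in TMM-scaled CPM control 2 stood at 225, below control 3 at 256 and level with resveratrol 2 at 225. SAT1 is known in mammals to produce an alternative transcript with an extra exon that is degraded, and whether the transcripts of the row differed in proportion was not tested.

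**Figure D4:**
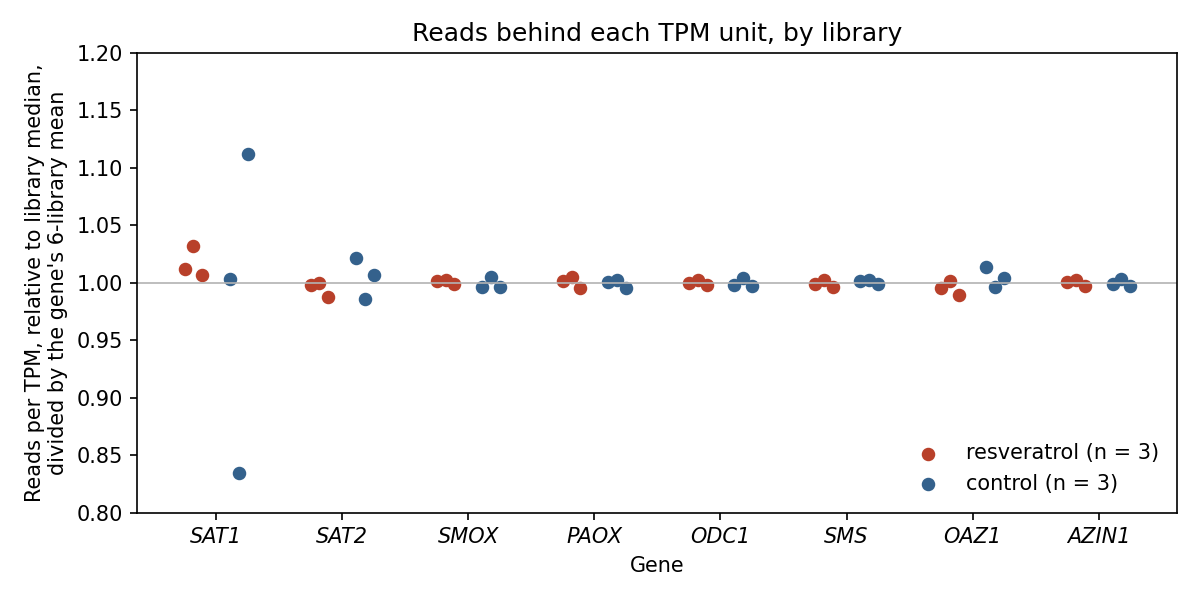
Reads per TPM of each polyamine gene, relative to the library median and divided by the mean of the gene over the 6 libraries, with resveratrol left of control. SAT1 spreads by 1.33 times between its lowest and highest library, and the other 7 genes by at most 1.04 times.

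Markers of other cell types were measured beside these genes, since fat holds immune and stromal cells, and in bulk tissue fewer cells of a type cannot be told apart from less RNA per cell. The 10 macrophage markers summed to 591 to 854 TPM in resveratrol and 468 to 547 TPM in control, without overlap. All 10 had a fold change above 0, against 48.8% of all tested rows. In edgeR 5 of the 10 had an unadjusted p under 0.05, against 6.53% of all tested rows. The 7 markers of neutrophils and mast cells, of which 5 had a row, summed to 148 to 271 TPM in resveratrol and 99.96 to 143 TPM in control. S100A12 had the highest TPM of that list, at 97.1 to 185 in resveratrol and 51.7 to 103 in control, with overlap. All 5 had a fold change above 0 on counts, but KIT in resveratrol 2 and 3 (17.4 and 17.3 TPM) lay below every control library. The 6 tendon and cartilage markers summed to 4.93 to 8.98 TPM in resveratrol and 9.85 to 118 TPM in control, with control 1 the highest. All 6 had a fold change below 0 on counts. COL2A1 made up 5.08 of the 9.85 TPM in control 2. COMP and MKX in control 2 (0.602 and 2.36 TPM) lay below resveratrol 2 (2.39 and 3.86 TPM). The part of these cell types in the SAT2 values was not tested. Only these 3 of the marker lists had sums without overlap between the diets. The sums of the others, among them T and NK cells, endothelium, fibroblasts and pericytes, overlapped. None of the markers of these 3 lists that had a row was at 0 reads in all libraries.

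Among the resveratrol libraries, resveratrol 1 had the highest macrophage marker sum and the lowest SAT2 CPM. Among the control libraries, control 1 had the highest of both. In TPM, the lowest SAT2 value in resveratrol was that of resveratrol 3. The 95% Poisson intervals of SAT2 CPM overlapped, at 20.8 to 23.8 in resveratrol 1 and 21.3 to 24.6 in resveratrol 3. Per 1000 reads of the macrophage markers, SAT2 had 18.7, 28.1 and 23.9 reads in resveratrol 1, 2 and 3, against 17.2, 19.1 and 20.1 reads in control 1, 2 and 3, and these groups overlapped. Per 1000 reads of the 10 adipocyte markers, SAT2 had 0.970, 1.05 and 0.872 reads in resveratrol 1, 2 and 3, against 0.661, 0.791 and 0.694 reads in control 1, 2 and 3, without overlap. These ratios were chosen after the values were seen. SAT2, their numerator, was chosen for its rise between these same libraries, so they are given as a description. The part of adipocyte content in the SAT2 values was not tested.

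SAT1 was set beside the adipocyte markers in the same way. The marker sum was 22436, 24490 and 28049 TPM in resveratrol 1, 2 and 3, against 18723, 24692 and 25101 TPM in control 1, 2 and 3. In TMM-scaled CPM, SAT1 was 189.8, 224.9 and 280.0 in resveratrol 1, 2 and 3, against 157, 224.9 and 256 in control 1, 2 and 3, which puts the 6 libraries in the same order. Resveratrol 2 and control 2 were level within counting error, and SAT1 in TPM had another order, with control 2 the highest. Per 1000 reads of the adipocyte markers, SAT1 had 8.28, 9.97 and 10.7 reads in resveratrol 1, 2 and 3, against 6.99, 12.8 and 12.1 reads in control 1, 2 and 3, with all resveratrol libraries inside the control range. The part of adipocyte content in SAT1 was not tested.

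**Figure D5:**
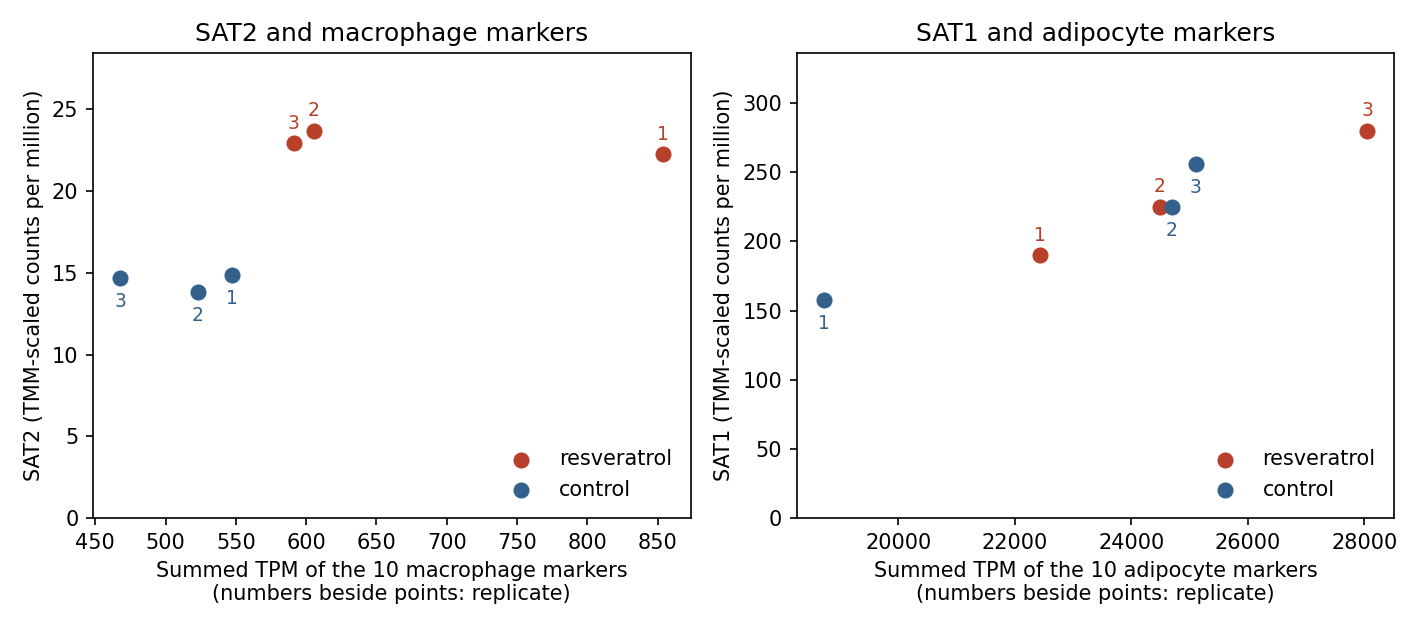
TMM-scaled CPM against the summed TPM of cell type markers in each library, with the replicate number beside each point: left, SAT2 and macrophage markers; right, SAT1 and adipocyte markers. SAT2 forms 2 level groups, at 22.2 to 23.7 in resveratrol and 13.9 to 14.9 in control, while SAT1 is lowest in control 1 and highest in resveratrol 3, as is the adipocyte marker sum. FABP4 makes up most of that sum.

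The genes most like SAT2 over the 6 libraries, by the mean absolute difference of log2 CPM after centring each gene, were PMAIP1 (0.078), RPUSD3 (0.084), GP91-PHOX (0.095), SLC33A1 (0.097) and OSCP1 (0.099). PMAIP1 is a pro-apoptotic member of the BCL2 family and GP91-PHOX the catalytic subunit of the phagocyte NADPH oxidase. PMAIP1 measured 11.3, 12.3 and 10.997 TPM in resveratrol 1, 2 and 3, against 7.73, 9.10 and 6.07 TPM in control 1, 2 and 3. The centred log2 CPM of SAT2 lay between -0.39 and -0.29 in control and between 0.29 and 0.38 in resveratrol. Genes picked for likeness to SAT2 therefore differ between the diets by selection. Those most like SAT1 were ETFA (0.045), FOLH1B (0.050), ACAT2 (0.053), NDUFAF7 (0.053) and AHCYL2 (0.058). ETFA, an electron carrier of fatty acid oxidation, measured 57.8, 64.4 and 74.4 TPM in resveratrol 1, 2 and 3, against 44.3, 73.4 and 67.3 TPM in control 1, 2 and 3, with control 1 lowest as for SAT1.

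In the RefSeq order, SAT2 lies between FXR2 and SHBG, with SOX15 and ATP1B2 beyond them, and none of these overlaps it. FXR2, an RNA-binding relative of the fragile X protein, measured 14.5, 14.04 and 14.8 TPM in resveratrol 1, 2 and 3, against 11.9, 12.6 and 14.7 TPM in control 1, 2 and 3, with a log2 fold change of 0.22 and overlapping groups. ATP1B2 had 1 to 13 reads per library and lay below the filter. SHBG and SOX15 could not be matched to a row by symbol.

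The second comparison asked whether genes around the pathway differed between the diets. Of 80 further genes in 7 lists, 72 had a row and 57 were tested. EdgeR's quasi-likelihood test called 0 of them at an adjusted p under 0.05, and 4 of 57 had an unadjusted p under 0.05, against 6.53% of all rows. Of these 4, SLC3A2 and MTR were higher and SLC7A1 and MYC were lower in resveratrol. The median log2 fold change of the 57 was 0.043, against -0.0075 over all rows. On counts 36 of the 57 had a fold change above 0, against 48.8% of all rows, and by mean TPM 26 of the 57 were higher in resveratrol, against 35.4% of all rows. The TPM groups did not overlap in 2 of the 57 that were higher and 5 that were lower in resveratrol. Over all tested rows these shares were 4.11% and 8.15%.

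In uptake and transport, 11 of 16 genes were tested, of which 6 had a fold change above 0 on counts and 4 by mean TPM. SLC3A2, the heavy chain of several amino acid carriers reported in human cells to take part in polyamine export, averaged 112.4 ± 3.02 TPM in resveratrol and 85.6 ± 11.1 TPM in control, with a log2 fold change of 0.47 (SE 0.20). SLC7A1, the main carrier of arginine and other cationic amino acids, averaged 1.68 ± 0.372 TPM in resveratrol and 2.81 ± 0.834 TPM in control, with a log2 fold change of -0.69 (SE 0.29). In TPM the groups did not overlap for either gene. The adjusted p of each in edgeR was 0.733, and the unadjusted p of 0.0436 for SLC3A2 went up to 0.121 when resveratrol 3 was left out. That of 0.0366 for SLC7A1 went up to 0.213 without control 1, where its log2 fold change was -0.37, and the log2 fold change of SLC3A2 was 0.29 without control 2. Leaving out control 2 or any 1 resveratrol library put SLC3A2 above 0.05, and leaving out control 1, resveratrol 2 or resveratrol 3 did so for SLC7A1.

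In the methionine cycle and the salvage of methylthioadenosine, the by-product of polyamine synthesis, 17 of 20 genes were tested, of which 13 had a fold change above 0 on counts and 10 by mean TPM. MTR, the methionine synthase, averaged 24.0 ± 2.21 TPM in resveratrol and 18.6 ± 5.63 TPM in control, with overlapping groups and a log2 fold change of 0.48 (SE 0.20). Its adjusted p in edgeR was 0.733, and its unadjusted p of 0.0375 went up to 0.140 without control 1, where its log2 fold change was 0.29, and was also above 0.05 when any 1 of the resveratrol libraries was left out. MTAP, which cleaves methylthioadenosine, averaged 21.4 ± 1.45 TPM in resveratrol and 21.2 ± 5.46 TPM in control, and was named after its value was seen.

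Of the genes that supply arginine and ornithine, 11 of 16 were tested and 0 had an unadjusted p under 0.05, with 7 above 0 on counts and 5 by mean TPM. OAT, the aminotransferase of ornithine, averaged 82.0 ± 9.17 TPM in resveratrol and 73.1 ± 3.22 TPM in control, and GATM, which uses arginine for creatine synthesis, 22.6 ± 3.04 TPM in resveratrol and 18.6 ± 6.45 TPM in control. Both overlapped between the diets. ARG1, the liver arginase, was below the filter at 0.198 to 0.616 TPM in resveratrol and 0.241 to 0.736 TPM in control, and was named after its value was seen.

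Among the further antizymes and inhibitors, all 3 were tested and 0 had an unadjusted p under 0.05, with 2 above 0 on counts and 0 by mean TPM. OAZ2, a second antizyme, averaged 48.2 ± 3.05 TPM in resveratrol and 49.997 ± 1.11 TPM in control. AZIN2, a relative of the antizyme inhibitor, measured 7.23, 7.27 and 7.10 TPM in resveratrol 1, 2 and 3, against 8.81, 8.35 and 7.97 TPM in control 1, 2 and 3. The groups of AZIN2 did not overlap in TPM, and its log2 fold change on counts was -0.14 (SE 0.17).

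Spermidine also provides the side chain that DHPS and DOHH attach to the translation factor EIF5A, a modification named hypusine. Of these 4 genes 3 were tested, and 0 had an unadjusted p under 0.05, with 3 above 0 on counts and 2 by mean TPM. DHPS averaged 16.0 ± 0.972 TPM in resveratrol and 15.5 ± 3.29 TPM in control, and EIF5A2 11.3 ± 0.871 TPM in resveratrol and 10.2 ± 1.54 TPM in control. EIF5A itself could not be matched to a row by symbol.

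Of 11 genes of amine oxidation and aldehyde clearance, 4 were tested and 0 had an unadjusted p under 0.05, with 2 above 0 on counts and 2 by mean TPM. ALDH7A1 and ALDH2, aldehyde dehydrogenases, averaged 94.9 ± 6.66 and 47.6 ± 4.96 TPM in resveratrol and 85.7 ± 5.65 and 44.9 ± 14.4 TPM in control. Both overlapped between the diets.

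The last list held 10 transcription factors and cofactors with reported actions on polyamine genes, of which 8 were tested, with 3 above 0 on counts and 3 by mean TPM. MYC, which activates transcription of ODC1, measured 7.48, 6.10 and 5.51 TPM in resveratrol 1, 2 and 3, against 8.33, 17.1 and 9.31 TPM in control 1, 2 and 3. All resveratrol libraries lay below all control libraries, with a log2 fold change of -0.74 (SE 0.22) and an adjusted p of 0.733 in edgeR. MYC was highest in control 2, and without that library its log2 fold change was -0.48. ODC1 beside it had a log2 fold change of 0.067. NFE2L2, the regulator of antioxidant genes, and PPARG, the adipocyte receptor, are each reported to act on SAT1, and their log2 fold changes were -0.021 (SE 0.18) for NFE2L2 and 0.28 (SE 0.20) for PPARG. They were named after their values were seen.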

How the data were processed

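Each library has a table deposited by the authors, which holds reads as whole-number counts and TPM for every row, per the file headers. A deposited TPM table of the whole series holds 14777 of these rows, all 8 measured polyamine genes among them, and 100% of its values lie within 0.1% of the library tables. Rows carry pig Ensembl identifiers or assembled loci. The submitters' processing notes list Bowtie 0.12.2 together with the mouse builds mm8 and mm9; a pig build, an annotation, a counting program and a strand setting were not given in the sources used here, so no coordinates are printed. Symbols were matched through a table of gene identifiers for 14750 rows. RefSeq Sscrofa11.1 gave only the order of genes.

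A row was tested where its TPM averaged 0.5 or more over the 6 libraries, with edgeR 4.0.16 (TMM scaling, robust quasi-likelihood test, Benjamini-Hochberg adjustment over all 14908 rows) in R 4.3.3, with the diet as the only term. Standard errors (SE) were derived from the log2 fold change and its F statistic. limma 3.58.1, DESeq2 1.42.0, other filters, a replicate block and each library left out were alternatives.

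The polyamine genes and all lists were chosen with earlier results of these data known. Named are every polyamine gene, list members at an unadjusted p under 0.05 or else the 2 with the highest mean TPM, the 5 rows most like SAT1 and SAT2, and the genes beside SAT2. Genes outside this rule are marked as named after their values were seen. Replicate numbers came from the titles. The labels' protocols name a kit for long RNA and one for small RNA; small RNA was not analysed here.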

Additional observations from a re-analysis of the deposited data

How the results depend on the processing

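SAT2 was chosen for its rise between these same libraries, and its groups did not overlap. Its sign under the alternatives follows largely from that choice and is given as a description. The log2 fold change of SAT2 was above 0 under all 18 alternatives. It was 0.64 to 0.69 with 1 library left out, 0.73 with library totals alone, 0.60 on quantile-normalized log2(TPM + 0.5), and on log2(TPM + a pseudocount) in limma it was 0.58 (0.5 added), 0.57 (1 added) and 0.59 (0.1 added). With any of those 3 pseudocounts, 4 of the 8 polyamine genes were above 0, against 7 of 8 on counts. The median over all tested rows moved as well, to -0.0792 (0.5 added), -0.0734 (1 added) and -0.0841 (0.1 added), from -0.0075 on counts. Leaving out 1 library put the log2 fold change of SAT1 between -0.054 and 0.28, that of OAZ1 between 0.023 and 0.54, that of SMS between -0.029 and 0.33, that of SMOX between 0.14 and 0.33, and that of AZIN1 between -0.15 and 0.13. The number of rows called at an adjusted p under 0.05, 0 in edgeR, was 40 in DESeq2, 1 with quantile normalization and 0 to 5 with 1 library left out (5 without control 2). The 973 rows at an unadjusted p under 0.05 became 1681 without control 3, 556 without resveratrol 1 and 403 without resveratrol 3. The share of them higher in resveratrol was 33.8%, and 64.1% with library totals alone and 50.5% with quantile normalization. The 4 pathway genes at an unadjusted p under 0.05 became 2 with quantile normalization and 1 to 7 with 1 library left out (7 without control 3, 1 without resveratrol 3). SLC3A2, SLC7A1 and MTR lost that mark under 5, 5 and 7 alternatives, and MYC under 0 of 18, although its log2 fold change was -0.48 without control 2, against -0.74. The causes were not tested.

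Deviations of same-numbered libraries from their group means correlated by 0.157, 0.0741 and 0.200 across genes, and each library correlated best with its own number, a hint from the data and not from the design. With the replicate block, SAT2 had a log2 fold change of 0.66, 0 rows were called, and 1259 had an unadjusted p under 0.05. Depth limits SMOX and SAT2 most, with 137 and 247 reads in control 2.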

Other observations

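NNMT, a methyltransferase that draws on the same methyl donor as polyamine synthesis and is known from mouse fat to affect polyamine flux, had 0.895, 2.35 and 1.64 TPM in resveratrol 1, 2 and 3, against 0.636, 1.04 and 1.08 TPM in control 1, 2 and 3. Its groups overlapped through resveratrol 1, and its log2 fold change was 0.90 (SE 0.44). NNMT was named after its value was seen, as was DOT1L, the histone methyltransferase gene next to OAZ1 in the RefSeq order. DOT1L measured 1.52, 1.56 and 1.06 TPM in resveratrol 1, 2 and 3, against 2.65, 2.97 and 1.65 TPM in control 1, 2 and 3, without overlap, and had a log2 fold change of -0.69, while OAZ1 beside it had one of 0.20. Of all tested rows, 8.15% were lower in resveratrol without overlap in TPM.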
